A study of Mus musculus with 6 samples.

Results

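The acyl-CoA thioesterases were described as the 7 genes of a fatty acid metabolism PCR array whose symbols begin with Acot, out of 84 genes on the plate. They are *Acot2*, *Acot3*, *Acot6*, *Acot7*, *Acot8*, *Acot9* and *Acot12*, picked by name. No measured value entered that rule, but it was set with earlier results of these data known. The cells were 3T3-L1 adipocytes, which are grown from a mouse preadipocyte line and were fully differentiated on day 14. 3 samples received 500 ng/ml of recombinant murine IL-15 (rmIL-15) for 24 hours and 3 were untreated, at 0 ng/ml for the same time. From each sample 400 ng of total RNA was reverse transcribed and run on 1 plate with SYBR green detection, so that each gene was read from 1 well per sample. A well gives a threshold cycle (Ct), and a lower Ct means more transcript.

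Acyl-CoA thioesterases split fatty acyl-CoA into a free fatty acid and coenzyme A, the reverse of the step that acyl-CoA synthetases catalyse. The reaction takes place in several compartments of the cell, each with enzymes of its own, and it sets how much acyl-CoA and free coenzyme A that compartment holds. In fat cells acyl-CoA lies between triacylglycerol synthesis, lipolysis and oxidation. On this plate the mitochondrial enzymes were represented by *Acot2* and *Acot9*, the peroxisomal enzymes by *Acot3*, *Acot6* and *Acot8*, and the cytosolic enzymes by *Acot7* and *Acot12*. *Acot2*, *Acot3* and *Acot6* encode type I thioesterases, which are closely related to each other, and the other members encode type II enzymes, which have a different fold.

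Which samples were treated was taken from the sample titles and from the group names in the deposited tables. A further label, the activation agent, assigns the groups the other way round, so every direction below rests on the titles. No source states that the samples of a group were separate cultures, so the p-values are set by the spread among these samples, and that spread may be a technical one. In whole-culture RNA, fewer cells that express a gene and less of its RNA per cell cannot be told apart. Between 73 and 74 genes per plate were under Ct 35 in rmIL-15 samples and between 71 and 73 in untreated samples, and the median Ct of the 69 genes under that limit on all 6 plates was 24.8 to 25.5 in rmIL-15 samples and 24.8 to 25.7 in untreated samples. Of 5 mature adipocyte markers on the plate 5 were under Ct 35 in every sample, with *Fabp4*, the fatty acid binding protein of fat cells, at Ct 16.4 to 16.8 with rmIL-15 and 16.5 to 17.1 without. *Fabp1* and *Slc27a2*, which mark hepatocytes, stayed at the limit on all plates, while 2 of 2 striated muscle markers, *Fabp3* and *Cpt1b*, were under it at Ct 30.6 to 31.9 with rmIL-15 and 30.8 to 31.7 without. The values were normalized to the well annotated *Gapdh*, as the study describes. The identity of that reference well is uncertain, because its Ct of 25.2 to 26.0 is late for this transcript. Its group means differed by -0.03 cycles (exact permutation test, two-sided, p = 0.8, where 0.1 is the smallest p that 3 samples against 3 allow).

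The mature 3T3-L1 adipocytes held transcripts of all 3 compartments at very unequal levels, and the order of the genes did not follow the compartments. *Acot9* was the most abundant member, at rank 25 of the 84 genes by mean Ct, and was followed by *Acot7* at rank 38. *Acot8*, *Acot2* and *Acot3* came next, at ranks 54, 55 and 58, and *Acot6* was at rank 65. *Acot12* was last of the members at rank 74. Neither amplification efficiencies nor product lengths were stated by any source, so that levels of different genes are approximate. The cycles below are differences within a plate, which need no reference gene. *Acot9* was 1.25 ± 0.16 cycles above *Acot7* (SD, n = 6 plates), and in this order on 6 of 6 plates, which is 2.38-fold if the product doubles at each cycle. *Acot7* was 2.48 ± 0.19 cycles above *Acot8* on 6 of 6 plates. *Acot8* and *Acot2* were 0.078 ± 0.23 cycles apart, with *Acot8* higher on 4 of 6 plates, so these neighbours did not differ beyond their spread. The same held for *Acot2* and *Acot3*, at 0.31 ± 1.34 cycles and in that order on 3 of 6 plates. *Acot3* was 2.53 ± 1.24 cycles above *Acot6* on 6 of 6 plates. *Acot6* was 3.89 ± 0.70 cycles above *Acot12* with Ct held at 35, which understates the step because untreated *Acot12* wells lay beyond that limit.

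**Figure D1:**
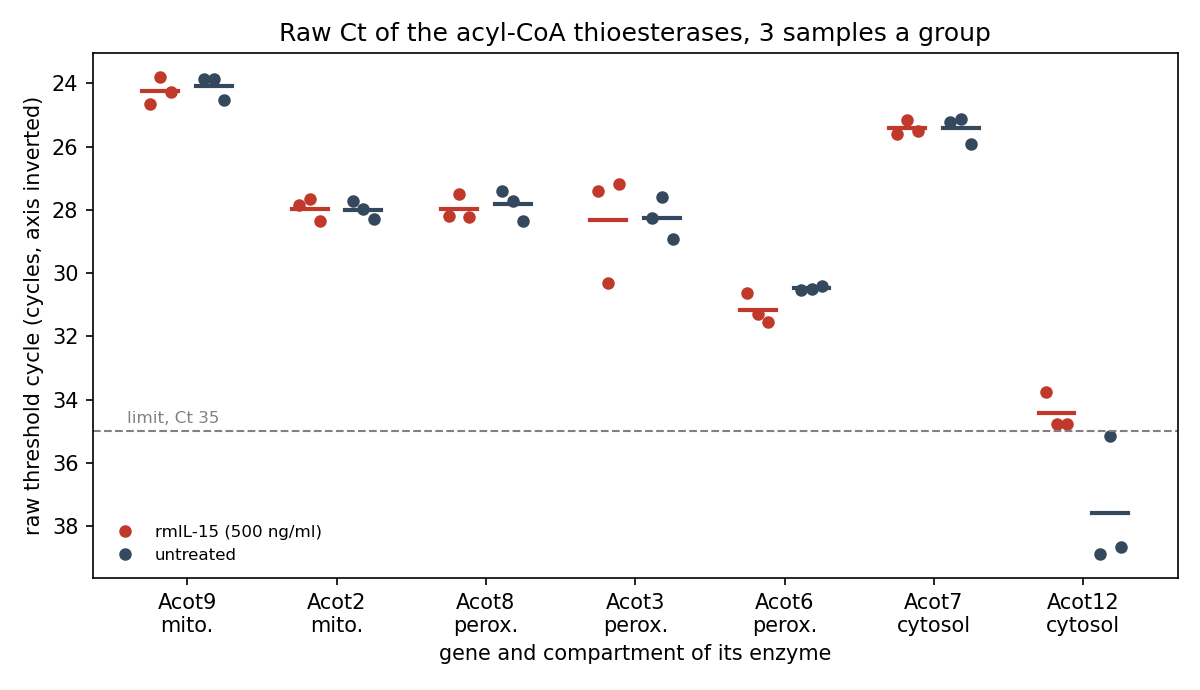
Raw threshold cycle in cycles, on an inverted axis, of each acyl-CoA thioesterase in the rmIL-15 samples (left of each pair) and the untreated samples (right), with points for samples and bars for group means. *Acot9* and *Acot7* lie highest, rmIL-15 replicate 2 stands apart in *Acot3* at Ct 30.3, and the 3 untreated *Acot12* wells lie beyond the dashed limit at Ct 35.

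Of the mitochondrial members, *Acot9* acts on acyl-CoA of a broad range of chain lengths. Its Ct was 24.6, 23.8 and 24.3 in rmIL-15 replicates 1 to 3 and 23.9, 23.9 and 24.5 in untreated replicates 1 to 3. The groups overlapped, and rmIL-15 replicate 1 and untreated replicate 3 were the latest. Relative to *Gapdh*, on the minus delta Ct scale, *Acot9* was at 1.19 ± 0.19 with rmIL-15 and 1.37 ± 0.07 without (SD, n = 3 each). The log2 fold change was -0.18 (standard error 0.14, 95% interval -0.52 to 0.16, adjusted p = 0.69 by limma).

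*Acot2*, the long-chain thioesterase of the mitochondrial matrix, had Ct 27.9, 27.7 and 28.4 with rmIL-15 and 27.7, 28.0 and 28.3 without. The values of the groups lay across the same range. Minus delta Ct was -2.53 ± 0.31 in rmIL-15 samples and -2.54 ± 0.23 in untreated samples (SD, n = 3 each), which left a log2 fold change of 0.0091 (standard error 0.21, 95% interval -0.50 to 0.52, adjusted p = 0.98 by limma). Both mitochondrial members thus had intervals that include 0 and that reach no further than 0.52 on either side.

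The peroxisomal members varied more among themselves. *Acot8*, the peroxisomal thioesterase that accepts many kinds of acyl-CoA, gave Ct 28.2, 27.5 and 28.2 with rmIL-15 and 27.4, 27.7 and 28.4 without. The groups overlapped. Its log2 fold change was -0.18 (standard error 0.16, 95% interval -0.56 to 0.21, adjusted p = 0.69 by limma), the same size as that of *Acot9*. Within a plate *Acot9* stayed 3.73 ± 0.21 cycles above *Acot8* with rmIL-15 and 3.73 ± 0.16 cycles above it without, a change of -0.0019 cycles.

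*Acot6*, described in mouse as a peroxisomal thioesterase for branched-chain acyl-CoA, was the 1 of 6 members under Ct 35 in all samples whose raw Ct did not overlap between the groups. Of the 69 genes under that limit in all samples, 7.25% had raw Ct that did not overlap (5 genes), and 4.35% did so with later Ct in rmIL-15 samples (3 genes, *Acot6*, *Acsl1* and *Prkaa2*). Its wells crossed the threshold at 30.6, 31.3 and 31.6 cycles with rmIL-15 and at 30.5, 30.5 and 30.4 cycles without. All 3 rmIL-15 samples were later than all untreated samples, by 0.0785 cycles at the closest, and the untreated wells spanned 0.149 cycles (exact permutation test of raw Ct, two-sided, p = 0.1, the smallest possible). After normalization to the *Gapdh* well the groups overlapped. Minus delta Ct was -5.00, -6.14 and -6.04 with rmIL-15 and -5.30, -5.33 and -4.43 without, so that rmIL-15 replicate 1 fell within the untreated range. The *Gapdh* well was latest on the plates of untreated replicate 3, at 26.0 cycles, and rmIL-15 replicate 1, at 25.6 cycles. The log2 fold change was -0.71 (standard error 0.40, 95% interval -1.70 to 0.29, adjusted p = 0.60 by limma), a fold of 0.612, and was the most negative of the members. It stayed negative in all 20 alternative settings and was past an unadjusted p of 0.05 in 3 of them, with an adjusted p between 0.54 and 0.90 (by limma or the methods' t-test). Other Ct limits, filters and tests and the replicate block leave this fold change as it is by construction. Its sign could turn only with another reference, centred plates or 1 sample left out. Without untreated replicate 3 it was -0.41, and without rmIL-15 replicate 1 it was -1.07.

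*Acot3*, a peroxisomal long-chain acyl-CoA thioesterase, had the widest spread of the members. Its Ct was 27.4, 30.3 and 27.2 with rmIL-15 and 28.3, 27.6 and 28.9 without. rmIL-15 replicate 2 was later than every other sample, while rmIL-15 replicates 1 and 3 were earlier than every untreated sample. The pooled SD within groups was 1.42 on the minus delta Ct scale, the 3rd widest of the 74 genes tested, whose median was 0.221. With this spread the log2 fold change of -0.075 had a standard error of 0.97 and a 95% interval of -2.48 to 2.33 (adjusted p = 0.97 by limma). Without rmIL-15 replicate 2 it was 1.07 (unadjusted p = 0.0065, adjusted p = 0.24, by limma). The sign also turned without untreated replicate 2, at 0.12, and with *Gusb* as reference, at 0.029. On the plate of rmIL-15 replicate 2 *Acot9*, *Acot8* and *Acot2* were at 23.8, 27.5 and 27.7 cycles, which is the earliest Ct of the 3 rmIL-15 plates for each of these genes. The late *Acot3* well was therefore not shared by them.

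*Acot2*, *Acot3* and *Acot6* belong to a run of 6 type I genes on chromosome 12, in the order *Acot2*, *Acot1*, *Acot4*, *Acot3*, *Acot5* and *Acot6* in the RefSeq annotation of GRCm38.p6. The array has wells for 3 of these 6. No source gave the primer sequences, and whether the wells tell these close relatives apart was not tested. The wells did not move alike. Within a plate the level of *Acot3* relative to *Acot6* was 3.21, 0.97 and 4.37 cycles with rmIL-15 and 2.27, 2.92 and 1.47 cycles without. The upstream sequences of the first and the fourth gene of this run are shown because these genes had close mean levels and unequal spread. Each stretch is the 250 bases before the annotated start in RefSeq (GRCm38.p6, plus strand), chr12:83987611-83987860 for *Acot2* and chr12:84051894-84052143 for *Acot3*, and capitals mark CCAAT on either strand (CCAAT or ATTGG).
Acot2: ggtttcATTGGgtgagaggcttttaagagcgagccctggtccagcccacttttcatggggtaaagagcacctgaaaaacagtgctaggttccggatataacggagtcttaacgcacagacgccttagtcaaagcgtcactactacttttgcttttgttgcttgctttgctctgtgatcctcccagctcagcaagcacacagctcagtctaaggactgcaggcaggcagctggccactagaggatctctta
Acot3: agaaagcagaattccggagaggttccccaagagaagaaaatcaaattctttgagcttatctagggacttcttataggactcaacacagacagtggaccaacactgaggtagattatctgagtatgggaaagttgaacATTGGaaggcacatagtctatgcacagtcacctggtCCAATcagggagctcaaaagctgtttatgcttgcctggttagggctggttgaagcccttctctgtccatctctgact
The *Acot2* stretch holds 1 such match and the *Acot3* stretch 2. The promoter table held 6 of the 7 members and not *Acot6*. Of these 6, 4 carried CCAAT on either strand (*Acot2*, *Acot3*, *Acot8* and *Acot9*), against 34.5% of the 27025 upstream stretches of the same length, 1 a gene. TATAAA was in *Acot9* alone of the 6 members, against 13.0% of all stretches. GGGCGG on either strand was in *Acot7*, *Acot8*, *Acot9* and *Acot12*, against 32.9%. AGGTCA on either strand, a nuclear receptor half-site, was in *Acot12* alone, against 13.8%. These are matches of letters and no measure of binding.

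Of the cytosolic members, *Acot7* encodes a thioesterase for long-chain acyl-CoA, arachidonoyl-CoA among them, that is best known from brain. Its Ct was 25.6, 25.2 and 25.5 with rmIL-15 and 25.2, 25.1 and 25.9 without. The group means were 25.4 cycles in both groups. On every plate it lay within 0.0597 cycles of the *Gapdh* well, and the SD of their difference over the 6 plates, 0.0226 cycles, was the smallest of the 2701 pairs of wells under Ct 35 in all samples (the next was 0.0325 and the median 0.343). Normalized to this well, *Acot7* had rmIL-15 over untreated at -0.029 as a log2 fold change (standard error 0.094, 95% interval -0.26 to 0.20, adjusted p = 0.95 by limma). A log2 fold change against *Gapdh* in these data is thus close to one against *Acot7*.

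*Acot12* encodes a cytosolic thioesterase of acetyl-CoA that is known from liver. Its raw Ct was 33.7, 34.8 and 34.8 with rmIL-15 and 38.9, 35.1 and 38.7 without. All 3 rmIL-15 samples were earlier than all untreated samples, by 0.365 cycles at the closest. The gene entered the fit only because the rmIL-15 wells were under Ct 35, so that a difference in this direction was built into its selection. The well that detects genomic DNA gave Ct 36.6 to 38.2 on rmIL-15 plates and 38.1 to 39.8 on untreated plates, with 1 well undetermined, and its part in the *Acot12* values was not tested. With Ct held at 35 the log2 fold change was 0.55 (standard error 0.44, 95% interval -0.53 to 1.63, adjusted p = 0.69 by limma). All 3 untreated wells were then set to 35, so their SD of 0.44 on the minus delta Ct scale is that of the *Gapdh* well. The standard error, interval and p therefore do not measure the spread of *Acot12* among untreated samples. The log2 fold change was 2.59 with Ct held at 38 and 3.11 with no limit. No p-value is given for these, as their direction was built into the selection of the gene. With Ct held at 32 every *Acot12* well was at the limit. The -0.029 that this setting gave is the group difference of the *Gapdh* well and holds no *Acot12* value. Among the liver markers on the plate, 1 of 5 was under Ct 35 in all samples.

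No acyl-CoA thioesterase passed an adjusted p of 0.05 by limma in the comparison of rmIL-15 with untreated adipocytes. The count was 0 of 7 members, as it was for the whole array, with 0% of the 74 genes tested. At an unadjusted p under 0.05 the members again gave 0 of 7, against 9.46% of all genes (7 of 74). 5 of 7 members had a negative log2 fold change, a share close to the 71.6% of all genes. That share of all genes was 51.4% with *Gusb*, 59.5% after centring each plate on its median Ct, and 89.2% with *Hsp90ab1* as reference, and the members then had 3, 4 and 6 negative values. The median log2 fold change was -0.075 over the 7 members, -0.13 over the 6 members under Ct 35 in all samples and -0.11 over all 74 genes. After normalization to *Gapdh* the groups did not overlap in 0 of 7 members, against 17.6% of all genes.

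**Figure D2:**
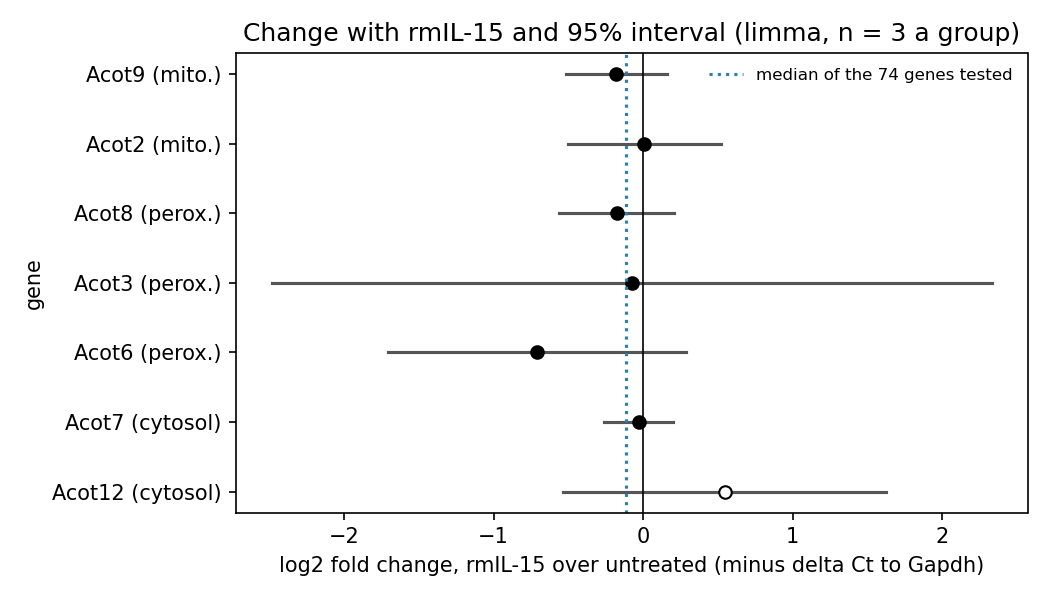
Log2 fold change of rmIL-15 over untreated samples for each acyl-CoA thioesterase (points) with 95% intervals from limma (lines), n = 3 samples a group; the dotted line is the median of all 74 genes at -0.11. Every interval includes 0, and that of *Acot3* is the widest. *Acot12* (open point) passed the filter on low levels through the rmIL-15 group alone, and its untreated wells were all set to Ct 35.

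The question of the compartments was put to differences within a plate, in which the reference gene cancels. The mean of the 3 peroxisomal members minus that of the 2 mitochondrial members was -2.48, -3.98 and -2.67 cycles with rmIL-15 and -2.94, -2.68 and -2.81 cycles without. rmIL-15 replicate 2 was lower than all other samples, and rmIL-15 replicates 1 and 3 were higher than the untreated ones. The difference averaged -3.04 ± 0.81 with rmIL-15 and -2.81 ± 0.13 without (SD, n = 3 each), a change of -0.24 cycles that was smaller than the spread in the rmIL-15 group. Without rmIL-15 replicate 2 the change was 0.23. With *Acot3* left out, a choice made after its values were seen, the difference was -3.15, -3.67 and -3.57 cycles with rmIL-15 and -3.18, -3.18 and -2.96 cycles without. The change was then -0.36 cycles and rmIL-15 replicate 1 still overlapped with the untreated samples. *Acot7* minus the mitochondrial members was 0.68 ± 0.13 cycles with rmIL-15 and 0.63 ± 0.14 without, a change of 0.056 cycles.

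**Figure D3:**
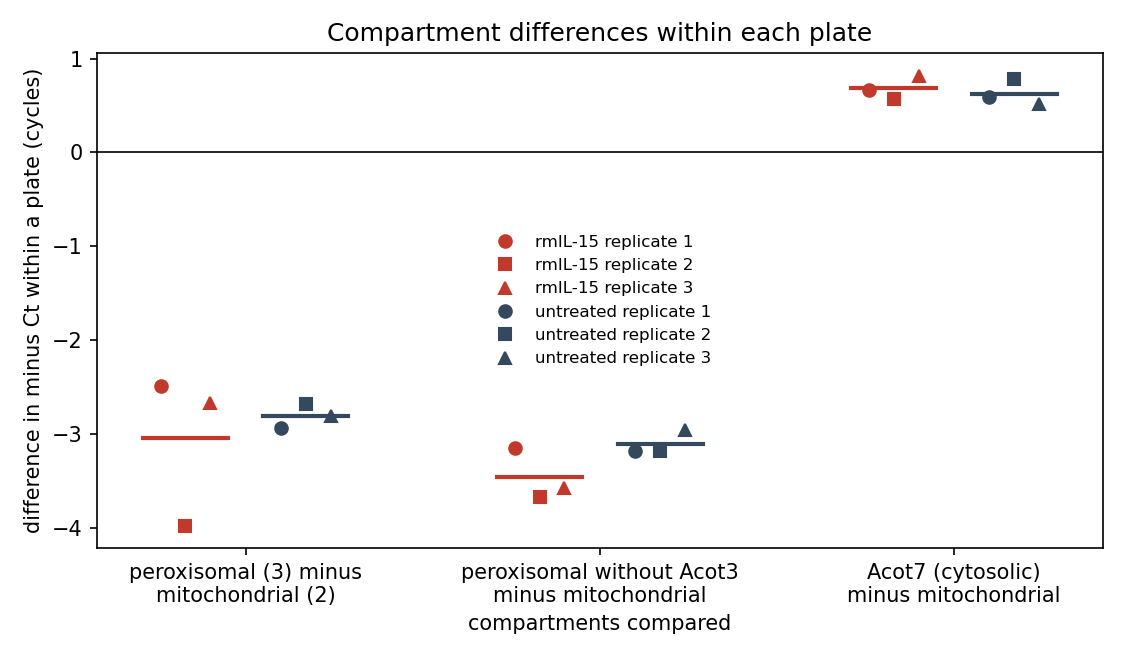
Difference in minus Ct between compartments within each plate, in cycles, for rmIL-15 samples (left of each pair) and untreated samples (right); points are samples, marked by replicate, and bars are group means. The peroxisomal mean of rmIL-15 replicate 2 lies at -3.98 with *Acot3* and near the other rmIL-15 samples without it, and the groups overlap in all 3 differences.

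The members were also set against each other pair by pair. Of the 15 pairs among the 6 members under Ct 35 in all samples, 0 had within-plate differences that did not overlap between the groups, against 15.9% of the 2346 pairs of all such genes. The change with rmIL-15 was 0.72 cycles for *Acot2* over *Acot6*, 0.63 cycles for *Acot3* over *Acot6* and -0.68 cycles for *Acot6* over *Acot7*. *Acot6* was on the lower side in each, but these pairs share the same *Acot6* wells and are not separate observations. For *Acot3* over *Acot6* the SD was 1.73 cycles with rmIL-15 and 0.73 without (n = 3 each).

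The genes whose Ct ran most parallel to each member over the 6 plates were taken as those with the smallest SD of the difference in Ct. These differences describe 6 plates that share RNA input, and they carry no test. *Acot9* ran closest to *Cpt2*, which encodes the inner carnitine palmitoyltransferase of mitochondria, with an SD of 0.0737 cycles, and to *Eci2*, an enoyl-CoA isomerase, with an SD of 0.0885 cycles. *Acot8* ran parallel to *Aldh2*, the mitochondrial aldehyde dehydrogenase (SD 0.152 cycles). *Aldh2* was also closest to *Acot2* (SD 0.170 cycles), before *Prkacb*, a catalytic subunit of protein kinase A (SD 0.187 cycles). After the *Gapdh* well, *Acot7* ran closest to *Crat*, carnitine acetyltransferase (SD 0.0785 cycles).

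*Acot6* and *Acot3* had no such close partner. The nearest to *Acot6* was *Acsl1*, the main long-chain acyl-CoA synthetase of adipocytes, with an SD of 0.344 cycles. *Acsl1* was at Ct 22.3, 22.2 and 22.3 with rmIL-15 and 21.8, 21.7 and 21.7 without, so that its raw Ct, like that of *Acot6*, was later in all rmIL-15 samples. The next was *Prkaa2*, a catalytic subunit of AMP-activated protein kinase, with an SD of 0.409 cycles. For *Acot3* the nearest were *Oxct2a*, a 3-oxoacid CoA-transferase, and *Acsm5*, a medium-chain acyl-CoA synthetase, with SDs of 0.776 and 1.05 cycles, against a median of 0.343 over all pairs. *Oxct2a* was itself low, at Ct 32.6, 33.7 and 31.9 with rmIL-15 and 33.8, 32.8 and 33.4 without. Its latest rmIL-15 sample was replicate 2, as for *Acot3*, but it lay within the untreated range.

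The enzymes around the thioesterases were taken as lists on the same plate, and their counts stand beside 71.6% negative values and 9.46% past an unadjusted p of 0.05 among all 74 genes. Acyl-CoA synthetases, which make the substrate, had 8 of 11 members tested, 5 with negative and 3 with positive log2 fold changes and a median of -0.25. 1 of them passed an unadjusted p of 0.05 and 0 passed after adjustment. The smallest p was that of *Acsl3*, a long-chain synthetase, at -0.51 (standard error 0.15, adjusted p = 0.47 by limma). Peroxisomal oxidation genes, which share the compartment of *Acot3*, *Acot6* and *Acot8*, had 8 negative and 1 positive value among 9 tested, with a median of -0.037. 1 of these passed an unadjusted p of 0.05 and 0 after adjustment, with *Acox2*, the oxidase of branched-chain acyl-CoA and bile acid intermediates, at -0.66 (standard error 0.11, adjusted p = 0.11 by limma). Mitochondrial oxidation genes had 10 negative and 2 positive values among 12 tested and a median of -0.20. 1 passed an unadjusted p of 0.05 and 0 after adjustment, with *Acadm*, the medium-chain acyl-CoA dehydrogenase, at -0.40 (standard error 0.13, adjusted p = 0.47 by limma). The medians of the 3 peroxisomal and 2 mitochondrial thioesterases were -0.18 and -0.085, beside -0.11 over all genes tested.

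**Figure D4:**
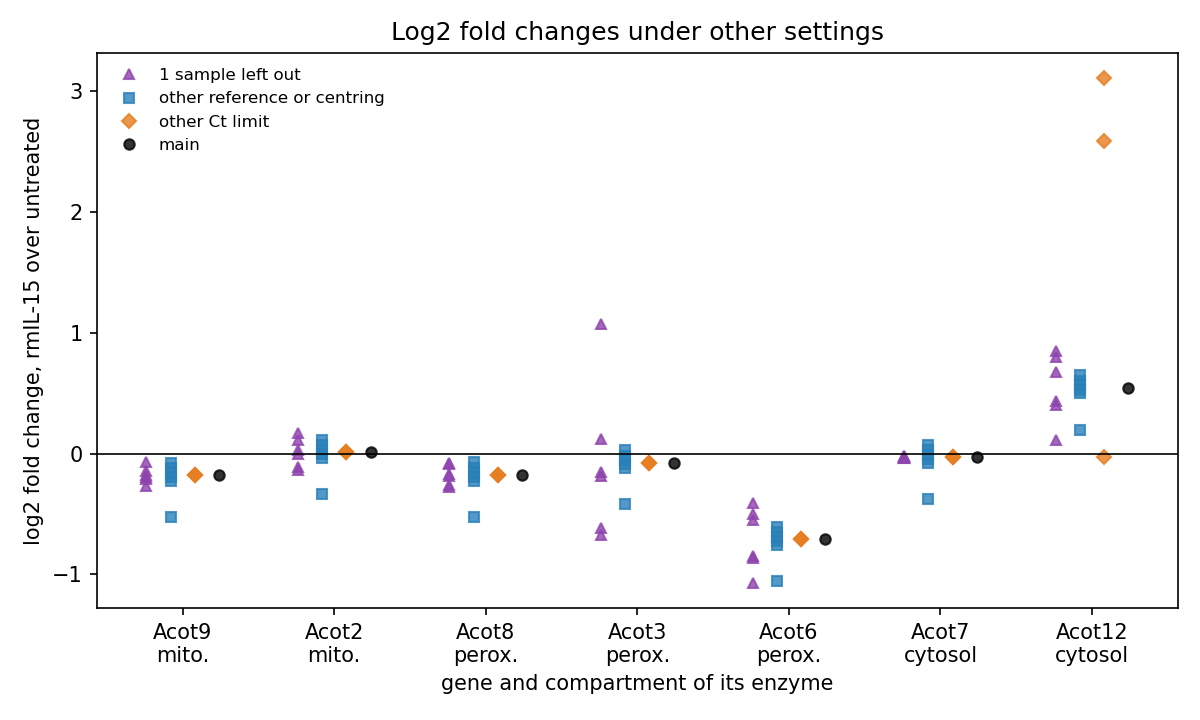
Log2 fold change of rmIL-15 over untreated samples for each acyl-CoA thioesterase with 1 sample left out (triangles), another reference well or centring (squares), another Ct limit (diamonds) and the setting reported above (circles). *Acot6* lies between -1.07 and -0.41 throughout, *Acot3* ranges from -0.68 to 1.07 with the sample left out, and *Acot12* ranges from -0.029 to 3.11 with the Ct limit. At -0.029 every *Acot12* well is held at Ct 32, and the value is that of the *Gapdh* well alone.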

How the data were processed

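Raw Ct values, in cycles and not normalized, were deposited by the authors for 1 plate of 96 wells per sample (84 genes, 5 reference wells and 7 control wells). The deposited normalized values are Ct differences, a log2 scale on which a higher value means less transcript. They equal the Ct, at most 35, minus the well annotated *B2m* to within 3.553e-15 cycles, whereas GAPDH is named in the methods and a housekeeping average in the table's header. They were used as an alternative. A deposited table of the authors' fold changes was not used, nor were 6 further columns of per-sample values.

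Undetermined Ct and Ct above 35 were set to 35, and each value was then taken as the *Gapdh* Ct of its plate minus the gene's own Ct (minus delta Ct). A gene was tested if every sample of either group had it under Ct 35, which left 74 genes for limma 3.58.1 in R 4.3.3 (lmFit and eBayes, group only, Benjamini-Hochberg adjustment over all 74), which was tested on simulated data. Exact permutation tests used scipy 1.17.1, and figures matplotlib 3.10.9. The depth of a qPCR well is not defined, each well was read once, and the number of samples limits the precision. All 7 members were found under the same symbol in RefSeq, whose promoters were read at GRCm38.p6. The text names the members, for each member under Ct 35 in all samples the 2 wells with the smallest SD of the Ct difference, the gene with the smallest p in each neighbouring list, and reference wells. 1 gene that this rule gives is not reported here. The members and lists were chosen with earlier results of these data known. Alternatives were other reference wells, Ct limits, filters and tests, a replicate block, and leaving out each sample.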

Additional observations from a re-analysis of the deposited data

How the results depend on the processing

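No member passed an adjusted p of 0.05 in limma fits, nor in the methods' t-test, in any of the 20 alternative settings, and 0 of all genes tested did. The methods' t-test also had 0 members past an unadjusted p of 0.05. The genes past an unadjusted p of 0.05 on the array numbered 7, against 3 with *B2m*, 2 with *Hsp90ab1*, 4 with the replicate block, 9 with Ct held at 38, 8 with no Ct limit, 8 of the 69 genes under Ct 35 in all samples, and 4 to 7 with 1 sample left out. *Acot6*, *Acot8* and *Acot9* kept their negative sign in all 20. For these genes the other Ct limits, filters and tests and the replicate block could not change it, as they leave the fold change as it is. *Acot2* turned negative with *Actb* (-0.0070), *Hsp90ab1* (-0.34) and the mean of all reference wells (-0.039), and ranged from -0.14 to 0.17 with 1 sample left out. *Acot3* was at 0.029 with *Gusb* and ranged from -0.68 to 1.07 with 1 sample left out. *Acot7* was at 0.075 with *Gusb* and 0.029 with centred plates. *Acot12* ranged from 0.11 to 0.85 with 1 sample left out, and had no value among genes under Ct 35 in all samples. Its -0.029 with Ct held at 32 is the difference of the *Gapdh* well alone. The median of all genes moved by 0.10 with *Gusb* and by -0.35 with *Hsp90ab1*. Negative values numbered 3 with *Gusb* and 5 to 6 with 1 sample left out. The compartment difference changed by -0.52 to 0.23 with 1 sample left out, by -0.56 with medians of members, and by -0.25 without *Acot3* and rmIL-15 replicate 2 together, an alternative added after seeing the data.

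Same-numbered samples did not deviate together (r = -0.27, 0.09 and -0.28 over genes), so the numbers were not taken as pairs. Between samples of different numbers r ranged from -0.41 to 0.56. With the replicate block 0 members passed, as without it, and 5 were negative, a count that the block could not change. Ct beyond 35 is close to the limit of detection, and with 3 samples a group, changes inside the 95% intervals given are not excluded.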
